A study of Mus musculus with 6 samples.

Results

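The resident Kupffer cell identity genes examined here were *Clec4f*, *Timd4*, *Vsig4*, *Cd5l*, *Marco*, *Cd163*, *Folr2*, *Spic*, *Id3* and *Adgre1*, 10 of the 54532 genes in the table of liver RNA-Seq counts. They were chosen by name, as genes that mark the macrophages living in the liver, with earlier results of these data known, and each was found once. RNA from the whole liver was sequenced for 3 g*Spns1*-cKO and 3 control mice. The g*Spns1*-cKO mice carried *Spns1* alleles with loxP sites around exon 3 together with a Rosa26Cre-ERT2 transgene, on a C57BL/6 background. According to the methods, tamoxifen at 50 mg/kg on postnatal days 11, 13 and 15 switched the Cre on throughout the body, so that Kupffer cells could lose *Spns1* as well as hepatocytes. Littermates with the floxed alleles served as controls in the methods, while the sample labels call these livers wild-type; whether the controls received tamoxifen and the age at collection are not given in the sources used here. SPNS1 is a lysosomal membrane protein, and the comparison asked which transcripts change in the liver when it is lost.

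Kupffer cells sit inside the liver sinusoids, where they take up bacteria, dying cells and old red blood cells from the portal blood and recycle their iron. They descend from precursors that settle in the liver before birth and renew themselves there. Their identity is maintained by CSF1, BMP, TGF-β and Notch signals from stellate, endothelial and hepatic cells, acting through factors such as NR1H3 (LXRα), SPI1 (PU.1), SPIC and ID3. When resident cells are lost, monocytes from the blood can fill the niche and switch on many of the same genes, *Clec4f* comparatively early and *Timd4* late.

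The promoters of 4 of the genes are shown because these genes span the range of responses below, from *Marco*, with the largest fold change, through *Vsig4* and *Cd5l*, to *Cd163*, which did not pass the test. Each sequence is the 250 bases before the RefSeq transcription start (GRCm38.p6), written along the strand of the gene, with the GAGGAA core bound by PU.1, or its reverse complement TTCCTC, in capitals.
*Marco*, chr1:120505025-120505274, minus strand: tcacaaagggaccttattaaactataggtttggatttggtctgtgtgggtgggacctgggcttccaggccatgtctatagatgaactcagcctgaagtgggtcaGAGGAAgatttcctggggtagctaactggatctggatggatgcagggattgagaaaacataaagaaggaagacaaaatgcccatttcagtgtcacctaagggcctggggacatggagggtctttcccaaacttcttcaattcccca
*Vsig4*, chrX:96293439-96293688, minus strand: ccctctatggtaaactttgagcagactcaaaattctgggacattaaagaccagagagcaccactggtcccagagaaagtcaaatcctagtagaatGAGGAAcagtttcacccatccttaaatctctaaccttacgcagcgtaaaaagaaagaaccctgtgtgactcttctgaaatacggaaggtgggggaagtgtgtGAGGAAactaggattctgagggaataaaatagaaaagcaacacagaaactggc
*Cd5l*, chr3:87357631-87357880, plus strand: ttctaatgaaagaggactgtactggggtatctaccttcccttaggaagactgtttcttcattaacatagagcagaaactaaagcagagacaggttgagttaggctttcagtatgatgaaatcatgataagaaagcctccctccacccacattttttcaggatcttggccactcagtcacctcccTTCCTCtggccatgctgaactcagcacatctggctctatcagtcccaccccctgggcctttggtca
*Cd163*, chr6:124304401-124304650, plus strand: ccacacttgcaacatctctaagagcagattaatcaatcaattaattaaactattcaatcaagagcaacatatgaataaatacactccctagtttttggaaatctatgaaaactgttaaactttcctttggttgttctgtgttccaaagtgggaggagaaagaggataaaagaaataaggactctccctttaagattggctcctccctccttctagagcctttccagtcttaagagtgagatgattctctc
RefSeq windows were found for 9 of the 10 genes, all except *Adgre1*. The PU.1 core was present in the window of 4 of these 9 genes, *Marco*, *Vsig4*, *Cd5l* and *Id3*, and in 23.3% of the 32851 promoter windows of all genes. It was absent for *Clec4f*, *Timd4*, *Folr2* and *Spic*, which all rose, and for *Cd163*. TGGGAA, the core bound by RBPJ, the nuclear partner of Notch, was found on either strand for 2 genes, *Clec4f* and *Marco*, and in 21.6% of all windows. TGCTGA, the half-site of MAF factors, was found for 5 genes and in 16.1% of all windows. The LXR element, in which the half-site AGGTCA is repeated in the same direction after 4 bases of any kind, was in none of the 9 and in 0.0152% of all windows. No PU.1, RBPJ and MAF matches overlapped each other in these windows. The windows of *Spic* and *Id3* and a second window of *Folr2* lie inside the gene as the count table bounds it, because RefSeq places the start further downstream. They therefore describe a different start site from that of the table. For *Clec4f*, 71 bases of the window lie inside the gene, and for the other *Folr2* window 4 bases. These matches describe the sequences only.

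The 6 libraries held 30350002 to 35295611 counts. The TMM factors, by which edgeR scales libraries to a common composition, were 0.834 to 0.873 in control and 1.16 to 1.18 in g*Spns1*-cKO livers, so fold changes are relative to that scaling. *Spns1* itself had 35.9, 50.7 and 34.6 CPM (counts scaled to the size and TMM factor of the library) in control livers against 17.8, 30.6 and 17.8 in g*Spns1*-cKO livers, with no overlap (log2 fold change -0.87, standard error 0.25, edgeR adjusted p = 0.0300). Reads were counted per gene, so the loss of exon 3 could not be seen directly. *Xist* had at most 5 counts and *Ddx3y* at least 1731 in every library, so both groups had the transcript pattern of males. The labels number the livers without naming animals, so the p-values measure the spread between these samples.

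The Kupffer cell identity genes were higher in g*Spns1*-cKO livers. Of the 10 genes, 9 rose at an adjusted p under 0.05 over the 15449 genes tested (edgeR, quasi-likelihood F test, Benjamini-Hochberg adjustment) and none fell, where 21.3% of all genes tested rose. The log2 fold change of each of the 10 was above 0. For 8 of them the increase was also at least 2-fold, and 12.6% of all genes tested both passed as higher and rose at least 2-fold. For the same 9 genes every g*Spns1*-cKO liver lay above every control liver, which held for 27.1% of all genes tested, and 26.9% were lower without overlap. The median log2 fold change of the 10 genes was 1.92, beside 0.01 for all genes tested. *Cd163* was the exception. All 10 genes passed the filter on low counts, and the smallest count of any of them in any library was 11. In whole-liver RNA, more cells of a type and more RNA per cell cannot be told apart.

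**Figure D1:**
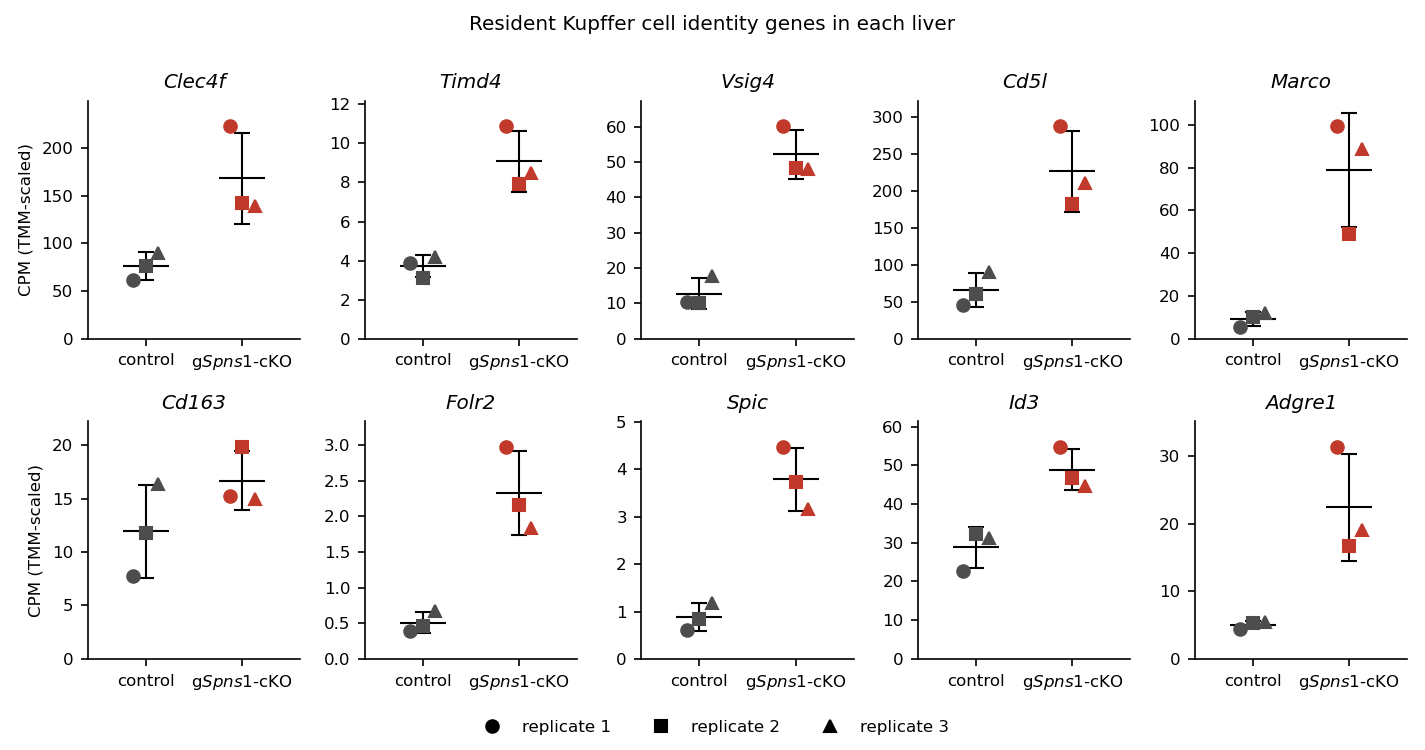
CPM (TMM-scaled counts) of the 10 Kupffer cell identity genes in each liver, with 1 symbol per replicate number and black bars for the mean and SD of 3 livers. The g*Spns1*-cKO livers (red) lie above all control livers (grey) for each gene except *Cd163*, and replicate 1 is the highest g*Spns1*-cKO liver for 9 of the 10 genes.

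*Marco*, a class A scavenger receptor that binds bacteria and particles (ENSMUSG00000026390, chromosome 1, 120474538 to 120505024 of GRCm38, minus strand), changed most. It had 5.48, 10.2 and 12.0 CPM in control livers compared with 99.2, 48.9 and 88.8 in g*Spns1*-cKO livers. The lowest g*Spns1*-cKO liver held 4.07 times the level of the highest control liver, the widest gap among the 10 genes. The log2 fold change was 3.10 (standard error 0.41, edgeR adjusted p = 0.00295), the 180th largest of the 15449 genes tested. *Vsig4*, the complement receptor CRIg that captures C3b-coated pathogens from the blood (ENSMUSG00000044206, chromosome X, 96247203 to 96293438), had 290, 308 and 450 counts against 2161, 1856 and 1888, or 12.7 ± 4.41 against 52.2 ± 6.85 CPM (SD, n = 3). The groups were far apart, and the 3 g*Spns1*-cKO livers varied little (log2 fold change 2.04, standard error 0.23, edgeR adjusted p = 0.000341). *Adgre1* encodes F4/80, the usual surface marker of mouse macrophages (ENSMUSG00000004730, chromosome 17, 57358691 to 57483527). Its CPM were 4.48, 5.29 and 5.49 in control livers against 31.4, 16.7 and 19.1 in g*Spns1*-cKO livers. Control livers were nearly alike, and the first g*Spns1*-cKO liver stood above the other 2 (log2 fold change 2.14, standard error 0.24, edgeR adjusted p = 0.000210).

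*Folr2*, a folate receptor of tissue-resident macrophages (ENSMUSG00000032725, chromosome 7, 101839988 to 101857194), was among the least abundant of the genes. Its counts were 11, 14 and 17 for control and 107, 83 and 72 for g*Spns1*-cKO livers, or 0.391, 0.455 and 0.672 CPM against 2.97, 2.16 and 1.83. Thus even the lowest g*Spns1*-cKO liver was well above the controls (log2 fold change 2.20, standard error 0.35, edgeR adjusted p = 0.000792). *Folr2* overlaps *Gm10602* and *Gm45319* on the opposite strand, and strand use in counting was not given. *Gm10602* had between 19 and 32 counts in every library with a log2 fold change of 0.01, and *Gm45319* had none.

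*Clec4f* and *Timd4*, the members most often used to tell resident Kupffer cells from other macrophages, rose less. *Clec4f*, a C-type lectin that binds glycolipids (ENSMUSG00000014542, chromosome 6, 83644542 to 83656187), had 61.3, 76.3 and 90.2 CPM in control livers compared with 222, 142 and 139 in g*Spns1*-cKO livers. No libraries overlapped, and the increase was 2.21-fold (log2 fold change 1.14, standard error 0.21, edgeR adjusted p = 0.00312). *Timd4*, a phosphatidylserine receptor for the uptake of apoptotic cells (ENSMUSG00000055546, chromosome 11, 46810800 to 46844332), had 3.88, 3.12 and 4.19 CPM against 10.9, 7.92 and 8.50. These libraries were again separate, with a 2.44-fold increase (log2 fold change 1.29, standard error 0.19, edgeR adjusted p = 0.000575).

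*Cd163*, the scavenger receptor for haptoglobin-bound hemoglobin (ENSMUSG00000008845, chromosome 6, 124304656 to 124330527), had 7.72, 11.8 and 16.4 CPM in control livers against 15.3, 19.9 and 14.9 in g*Spns1*-cKO livers. The groups overlapped, because the highest control liver exceeded 2 of the g*Spns1*-cKO livers. Its log2 fold change was 0.48, with a 95% interval from -0.10 to 1.07 (standard error 0.26, edgeR adjusted p = 0.165). The call depended on the setting, and *Cd163* passed with library size only (0.93, adjusted p = 0.0120), with all genes of at least 1 count kept (adjusted p = 0.00818) and without control replicate 3 (0.76, adjusted p = 0.0278; edgeR in each case). Over all alternatives its adjusted p was between 0.00818 and 0.384. The lowest came from keeping genes of at least 1 count, which changed adjusted p far more than fold changes. There *Vsig4* had an edgeR adjusted p of 1.06e-46 and *Marco* 0.0132, against 0.000341 and 0.00295 in the main fit.

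*Cd5l* encodes AIM, a protein that macrophages secrete into the blood (ENSMUSG00000015854, chromosome 3, 87357881 to 87371073). It had 45.1, 60.7 and 90.9 CPM in control livers compared with 287, 182 and 211 in g*Spns1*-cKO livers, the highest levels of the 10 genes in the latter. Both groups spread widely without meeting (log2 fold change 1.79, standard error 0.29, edgeR adjusted p = 0.00277). *Spic*, an Ets-family transcription factor that heme induces in iron-recycling macrophages (ENSMUSG00000004359, chromosome 10, 88674772 to 88685015), had 17, 26 and 30 counts in the controls against 161, 143 and 124 after *Spns1* deletion. Scaled, these were 0.605, 0.844 and 1.19 CPM against 4.48, 3.73 and 3.15, again with no overlap (log2 fold change 2.11, standard error 0.30, edgeR adjusted p = 0.000425). *Id3*, an inhibitor of basic helix-loop-helix factors that Kupffer cells need to develop and that other liver cells also express (ENSMUSG00000007872, chromosome 4, 136143497 to 136145755), had 22.8, 32.2 and 31.3 CPM against 54.8, 46.8 and 44.8. Its rise was the smallest of those that passed, with little spread between livers (log2 fold change 0.76, standard error 0.14, edgeR adjusted p = 0.00231).

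**Figure D2:**
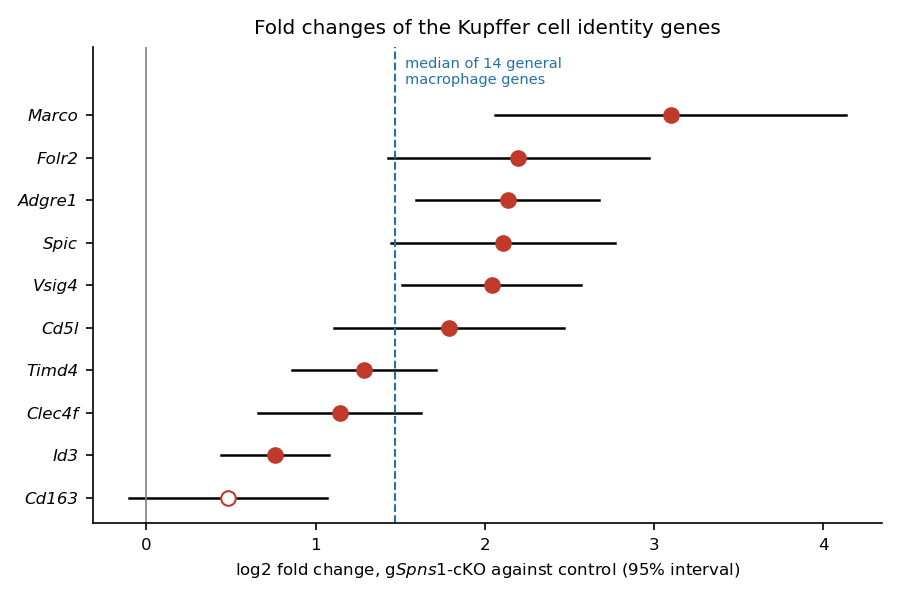
Log2 fold change of each Kupffer cell identity gene, g*Spns1*-cKO against control, with the 95% interval of the edgeR fit; filled circles passed an adjusted p of 0.05. *Marco* is highest at 3.10 and *Cd163* lowest at 0.48, and the dashed line marks 1.47, the median of 14 general macrophage genes.

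The same livers stood at the ends of their groups for most of these genes. In g*Spns1*-cKO replicate 1 the level was the highest of its group for 9 of the 10 genes, and in control replicate 1 it was the lowest of its group for 8. Summed over the 10 genes, control livers held 162, 211 and 270.1 CPM and g*Spns1*-cKO livers 789, 518 and 579. As a share of all counts this was 0.0140% to 0.0225% in control and 0.0610% to 0.0912% in g*Spns1*-cKO livers. The cell division genes *Mki67* and *Top2a*, chosen after their values were seen, also stood high in g*Spns1*-cKO replicate 1. *Mki67* had 3.67 CPM there, against 0.912 and 1.25 in the other 2 and 0.676, 0.682 and 1.82 in control livers. *Top2a* had 3.86 CPM there and between 0.407 and 0.790 in the other 5 livers. Which cells these transcripts came from was not tested. Without this library 9 of the 10 Kupffer cell genes still passed as higher, with a median log2 fold change of 1.70.

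Per kilobase of transcript, which allows genes to be compared with each other, the order of levels shifted. In control livers *Cd5l* (32.2 ± 11.4 CPM per kb, SD, n = 3) and *Clec4f* (30.7 ± 5.84) were highest and overlapped. *Id3* (16.1 ± 2.90), *Vsig4* (8.56 ± 2.97) and *Marco* (4.79 ± 1.75) followed, each separate from the gene before it in all livers. *Marco* overlapped with *Cd163* (2.19 ± 0.795), *Cd163* with *Timd4* (1.72 ± 0.254) and *Timd4* with *Adgre1* (1.57 ± 0.165), which was separate from the genes after it. *Folr2* (0.327 ± 0.0952) and *Spic* (0.229 ± 0.0760) were lowest and overlapped. In g*Spns1*-cKO livers *Cd5l* (111 ± 26.8) and *Clec4f* (67.9 ± 19.1) were still the highest and again overlapped. *Marco* (41.0 ± 13.8) moved from the fifth to the third place, where it overlapped with *Vsig4* (35.1 ± 4.62), and *Id3* (27.2 ± 2.96) moved to the fifth. *Adgre1* (6.92 ± 2.43) passed *Timd4* (4.19 ± 0.719) and *Cd163* (3.06 ± 0.505), each separate from the next, with *Folr2* (1.5 ± 0.380) and *Spic* (0.986 ± 0.172) at the end.

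Levels were then expressed within each liver as a percentage of the summed level per kilobase of 14 general macrophage genes (*Csf1r*, *Cd68*, *Lyz2*, *Ptprc*, *Laptm5*, *Tyrobp*, *Fcer1g*, *Ctss*, *Mpeg1*, *Aif1*, *Mertk*, *C1qa*, *C1qb* and *C1qc*), which needs no scaling between libraries. The sum of the 10 Kupffer cell genes was 44.4%, 40.0% and 48.6% of this level in control livers against 45.2%, 37.8% and 45.9% in g*Spns1*-cKO livers. The sums overlapped, and their log2 difference was -0.05 with a standard error of 0.12. The composition of the sum differed. *Marco* was 1.69%, 2.19% and 2.44% in control livers against 6.23%, 3.91% and 7.62% after deletion, a log2 difference of 1.45 (standard error 0.33). *Cd163* moved the other way, from 0.842%, 0.892% and 1.18% to 0.338%, 0.559% and 0.452%, a log2 difference of -1.12 (standard error 0.26). *Clec4f* was also lower by this measure, at 14.8%, 12.8% and 14.3% against 10.9%, 8.85% and 9.29% (log2 difference -0.53, standard error 0.11). *Id3* had a log2 difference of -0.89 (standard error 0.07). *Folr2*, *Spic* and *Vsig4* were higher in every g*Spns1*-cKO liver, with log2 differences of 0.55, 0.49 and 0.42. *Adgre1*, *Cd5l* and *Timd4* overlapped, at 0.43, 0.16 and -0.37 (standard errors 0.19, 0.19 and 0.25). Each gene without overlap had p = 0.1 in a two-sided exact permutation test, the smallest that 3 livers against 3 allow. Of all genes tested, 1.99% were higher by this ratio without overlap and 80.1% lower. With only *Cd68*, *Csf1r*, *Ptprc* and *Laptm5* as the reference, *Marco* (1.35), *Cd163* (-1.23), *Clec4f* (-0.64) and *Id3* (-0.99) still did not overlap, whereas *Vsig4*, *Folr2* and *Spic* did.

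**Figure D3:**
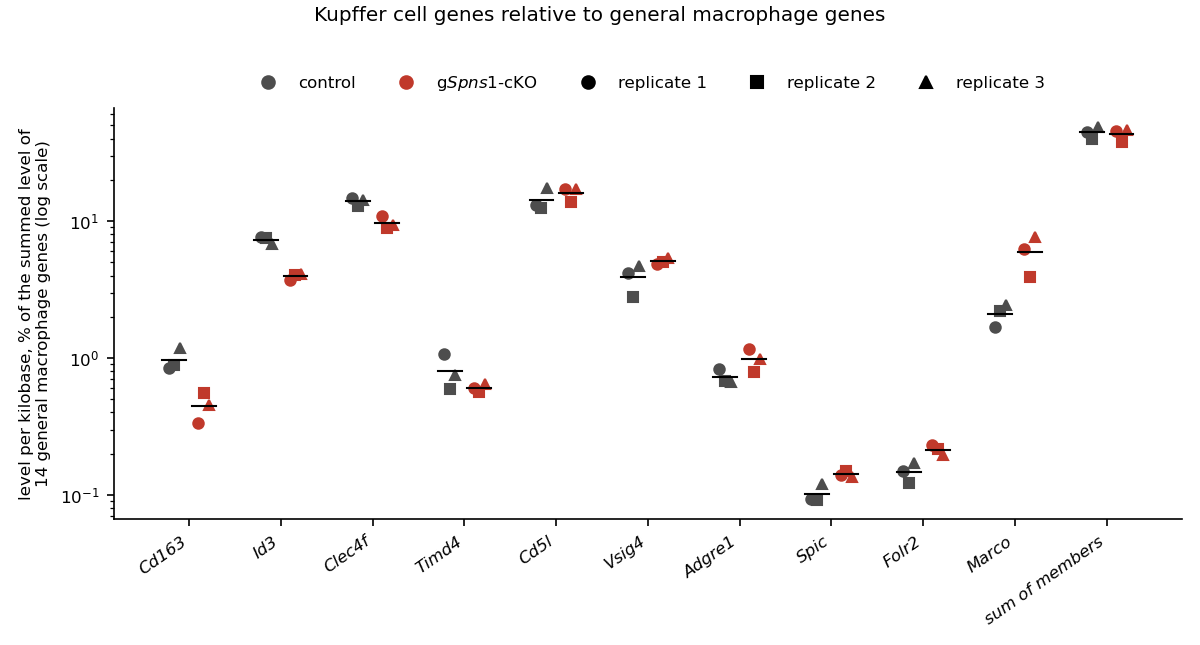
Level per kilobase of each Kupffer cell identity gene as a percentage of the summed level of 14 general macrophage genes in the same liver (log axis), ordered by the log2 difference between groups; symbols are replicates and bars the means of 3 livers. *Cd163*, *Id3* and *Clec4f* on the left are lower in g*Spns1*-cKO livers (red), *Marco* on the right is higher, and the sum of the 10 genes overlaps between the groups.

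Further genes of Kupffer cells rose as well. Of 14 such genes outside the 10, 11 rose and 1 fell at an adjusted p under 0.05 (edgeR, 21.3% and 20.5% of all genes tested), and the list had a median of 1.45 on the log2 scale. This list was chosen with earlier results of these data known, so it is not independent of them. *Clec1b*, the receptor CLEC-2, had a log2 fold change of 1.37 (edgeR adjusted p = 4e-05), while *Siglec1*, the sialoadhesin of resident macrophages, rose by 2.06 on the log2 scale (adjusted p = 0.000244). *Fabp7*, a fatty acid binding protein, had the largest increase of the list, from 1.83 ± 0.128 to 10.3 ± 0.236 CPM (SD, n = 3; log2 fold change 2.48). *Slc16a9*, *Vcam1*, *Axl*, *Il18bp* and *Sdc3* had log2 fold changes of 2.26, 2.09, 1.77, 1.52 and 1.26, and *Pcolce2* and *Fcna*, a ficolin, 0.94 and 0.69. *Pcolce2* was close to the threshold (edgeR adjusted p = 0.0442). Over all alternatives, between 10 and 12 genes of this list were called higher. *Vcam1* and *Axl* are made by other liver cells too. In heme and iron handling the pair *Hmox1* and *Slc40a1* differed. *Hmox1*, which degrades heme, rose by 1.90 (standard error 0.13, edgeR adjusted p = 7.56e-06), while *Slc40a1*, the iron exporter ferroportin, had 0.19 with a 95% interval from -0.09 to 0.46 (edgeR adjusted p = 0.256), and 0.63 (adjusted p = 0.00148) with library size only. *Cd207*, the langerin gene, fell by 0.71 on the log2 scale (standard error 0.23, edgeR adjusted p = 0.0321), with 73, 105 and 79 counts in the controls and 63, 78 and 71 after deletion. That call was lost with library size only (-0.26, adjusted p = 0.369), with upper-quartile scaling (-0.57, adjusted p = 0.0733), under the threshold of 0.01, with all genes of at least 1 count kept, with the replicate block and without any one of control replicates 2 and 3 and g*Spns1*-cKO replicates 2 and 3. With control replicate 1 or g*Spns1*-cKO replicate 1 left out, 1 gene of this list was called lower. Which gene that was is not given here. *C6*, a terminal complement component that hepatocytes also make, had 11465, 15599 and 9427 counts against 5215, 975 and 1229, with no overlap in CPM. Its log2 fold change was -2.67, with a 95% interval from -4.89 to -0.46, and it did not pass (edgeR adjusted p = 0.0621). *C6* and *Cd207* were the only genes of this list with negative log2 fold changes, and DESeq2 and limma-voom each called 2 of its genes lower.

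Transcription factors tied to Kupffer cell identity moved in both directions. Of 17 such genes, 7 rose, 4 fell and 6 did not pass (edgeR, adjusted p under 0.05), with a median log2 fold change of 0.40. Over all genes tested, 21.3% rose and 20.5% fell by the same test. *Spi1*, which encodes PU.1, *Zeb2* and *Tfec*, factors of the macrophage lineage, rose by 1.70, 1.69 and 1.74 on the log2 scale (edgeR adjusted p = 0.000139, 1.61e-05 and 0.00176). *Irf8*, *Id1*, *Maf* and *Smad6*, which BMP signals induce in the case of *Id1* and *Smad6*, rose by 0.93, 0.81, 0.72 and 0.60. *Nr1h3*, the gene of LXRα, which Kupffer cells need for their identity, fell from 131 ± 9.996 to 86.2 ± 6.11 CPM (SD, n = 3; log2 fold change -0.61, standard error 0.11, edgeR adjusted p = 0.00186), a call lost with library size only (-0.16, adjusted p = 0.235). *Rxra*, the partner of LXRα, and *Cebpb* had -0.87 and -1.25 (edgeR adjusted p = 0.00147 and 0.000486). Hepatocytes also express *Nr1h3*, *Rxra* and *Cebpb*, and 6 of 8 hepatocyte marker genes fell, with summed levels of 105544 to 119686 CPM in control and 61327 to 74049 in g*Spns1*-cKO livers. With library size only, *Asgr1* and *Pck1* were the hepatocyte genes that kept this call. The part of hepatocytes in these values was not tested. *Rbpj*, *Smad4*, *Nr1h2*, *Id2*, *Klf4* and *Irf7* did not pass, with log2 fold changes of 0.25, -0.12, -0.18, 0.40, 0.60 and -0.69. With library size only, *Smad4* and *Nr1h2* changed sign, to 0.33 and 0.27. In that setting *Rbpj*, *Id2*, *Klf4* and *Smad4* passed as higher (edgeR adjusted p = 0.00304, 0.00238, 0.00867 and 0.0301).

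Among the niche signals, 8 of 15 genes rose and none fell (edgeR, adjusted p under 0.05), and the median log2 fold change was 0.61. The share of all genes tested that rose was 21.3%. Of the ligands, *Csf1*, the growth factor of macrophages, rose from 9.22 ± 0.638 to 19.2 ± 3.48 CPM (SD, n = 3; log2 fold change 1.06, standard error 0.15, edgeR adjusted p = 0.000486). *Il34*, which binds the same receptor, had 0.32 and did not pass (adjusted p = 0.360). *Gdf2*, which encodes BMP9 and is made by stellate cells, rose by 0.98 (standard error 0.11, adjusted p = 9.58e-05), *Tgfb1* by 0.91 and *Bmp2* by 0.59, and *Bmp10* had 0.37 without passing. The Notch ligand *Dll1* rose by 0.81, whereas *Dll4* and *Jag1* had 0.35 and 0.75 without passing. Of the receptors, *Acvrl1*, which binds BMP9, *Tgfbr2* and *Notch2* rose by 1.16, 0.85 and 0.61, and *Bmpr2*, *Tgfbr1* and *Notch1* had 0.18, 0.28 and 0.31 without passing. These smaller changes depended on the scaling. With library size only, 15 of the 15 passed as higher, while the median of all genes tested rose by 0.44.

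The general macrophage genes used as the reference above rose in 13 of 14 cases and fell in none (edgeR, adjusted p under 0.05, where 21.3% of all genes tested rose), with a median log2 fold change of 1.47. Their summed level was 266 to 431 CPM in control and 946 to 1271 in g*Spns1*-cKO livers. *Lyz2*, *Ctss* and *Cd68*, genes of lysozyme, a lysosomal protease and a lysosomal membrane protein, led with 2.33, 2.15 and 2.14, and *Mpeg1* did not pass (1.13, edgeR adjusted p = 0.0524). Of the 10 Kupffer cell identity genes, 6 had larger and 4 smaller log2 fold changes than the median of this list. Genes of recruited or lipid-associated macrophages had a median of 2.48. In that list 14 of 16 tested genes rose and none fell, from a summed 149 to 267 CPM to 942 to 1035 CPM. *Gpnmb*, *Cd63* and *Lpl*, which act in lysosomes and lipid uptake and are not confined to macrophages, had the largest changes, at 6.84, 5.29 and 4.46 (edgeR adjusted p = 8.5e-05, 6.4e-08 and 2.84e-07). The monocyte gene *Ly6c2* had 0.56 and did not pass (adjusted p = 0.305), *Ccr2* had 1.91 (adjusted p = 0.000982), and *S100a4* had at most 1 count in any library.

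**Figure D4:**
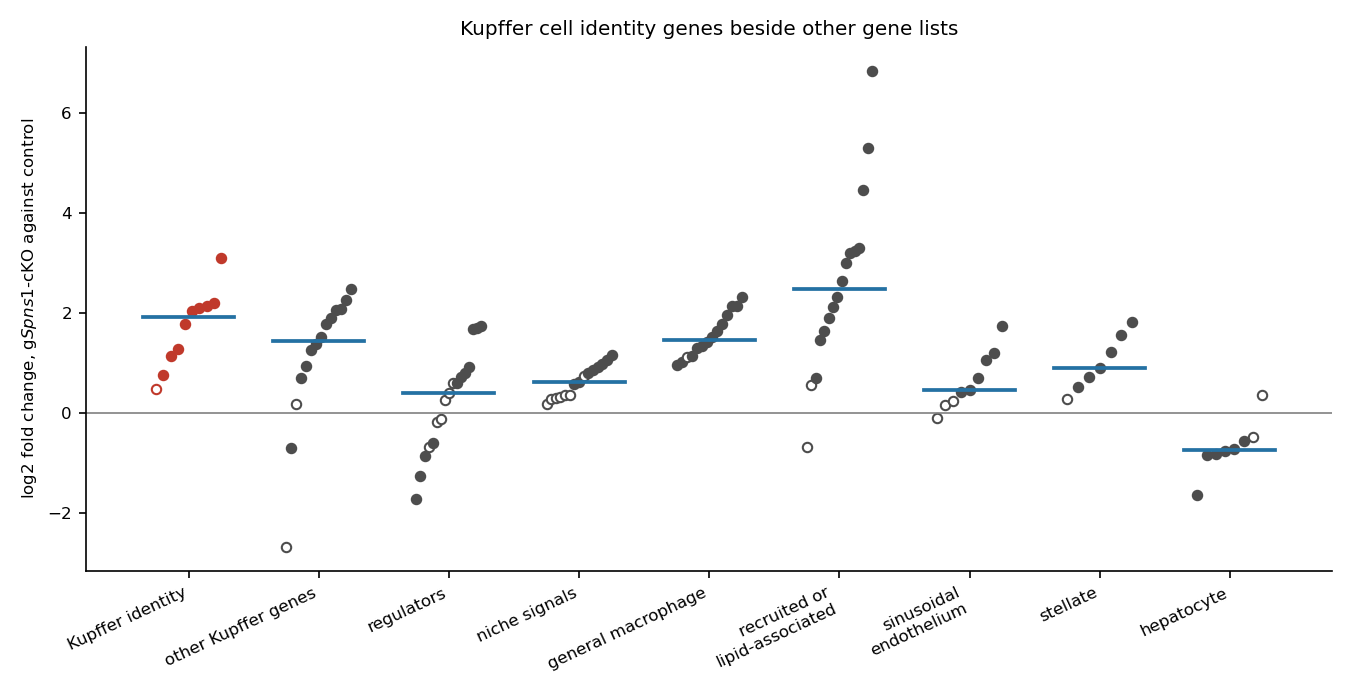
Log2 fold change, g*Spns1*-cKO against control, of every tested gene in 9 lists, with filled circles for genes past an adjusted p of 0.05 in the edgeR test and blue bars for the medians. The Kupffer cell identity genes (red) have a median of 1.92, between the general macrophage genes at 1.47 and the recruited or lipid-associated genes at 2.48, and hepatocyte genes lie below 0 except *Cps1*.

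Markers of the cells that form the niche moved too, and their part in the results above was not tested. Of 9 sinusoidal endothelial genes 6 rose and none fell (edgeR, adjusted p under 0.05), with a median log2 fold change of 0.45 and a summed level of 240.1 to 255 CPM in control and 319 to 382 in g*Spns1*-cKO livers. *Lyve1*, *Stab2* and *Cdh5* rose most, by 1.74, 1.19 and 1.06. *Oit3*, *Stab1* and *Clec4g* did not pass, with log2 fold changes of 0.25, 0.15 and -0.10. With library size only these had 0.69, 0.60 and 0.34 and passed as higher. By the main test 21.3% of all genes tested rose. Of 7 stellate cell genes 6 rose and none fell, with a median of 0.90 and summed levels of 313 to 369 against 619.9 to 719 CPM, led by *Pdgfrb*, *Dcn* and *Lrat* at 1.82, 1.57 and 1.22. All of the endothelial and stellate markers had counts in both groups.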

How the data were processed

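Per the labels and supplemental methods, poly(A) RNA from liver was sequenced by a commercial service, and the submitters' processing notes name fastp, HISAT2 2.0.5, featureCounts 1.5.0-p3 and mm10. The authors deposited whole-number counts per gene and library, not normalized or pooled, which were used here. The deposited FPKM values, the authors' group means (a signal of scaled counts), log2 fold changes and p-values were not used. Gene lengths in the table gave levels per kilobase.

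The counts were tested with edgeR 4.0.16 under R 4.3.3 (filterByExpr, TMM, robust glmQLFit, glmQLFTest), with Benjamini-Hochberg adjustment over 15449 genes and a threshold of 0.05. Standard errors are the log2 fold change over the square root of F. The scripts were tested on simulated data. Coordinates of all 10 genes equalled GENCODE M21 (GRCm38). No 2 libraries of a group were alike within sampling noise (chi-square per gene at least 38.8). The alternatives used DESeq2 1.42.0, limma-voom 3.58.1, other scalings, filters and thresholds, a replicate block and leaving out each library. The values of 1 gene of the regulator list are not reported here. The members and lists were chosen with earlier results of these data known. Named genes were the 10 members, *Spns1*, any gene of the Kupffer cell, regulator and niche lists, up to 3 largest called changes of other lists, and markers at or near 0. *Mki67*, *Top2a*, *Xist*, *Ddx3y*, *Gm10602*, *Gm45319*, *Mpeg1*, *Ly6c2*, *Ccr2*, *Cps1*, *Oit3*, *Stab1*, *Clec4g*, *Cd8a*, *Cd3d*, *Cd3e*, *Cd4*, *Cd79a*, *Gata6* and *Icam2* were named outside this rule, after their values were seen. Intervals cover these samples only, and 1 count was 0.0254 to 0.0395 CPM.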

Additional observations from a re-analysis of the deposited data

How the results depend on the processing

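Between 9 and 10 of the 10 Kupffer cell identity genes passed as higher, and none as lower, under each of the 14 alternatives, and each of the 9 genes other than *Cd163* kept its direction and its call in all of them. Their median log2 fold change was between 1.70 and 2.13 with each library left out in turn, and 2.37 with library size only. Library size only also moved the median of all genes by 0.44 and upper-quartile scaling by 0.13, and the genes called over the whole table were then 7289 higher and 970 lower, or 4111 and 2240, against 3286 and 3166. It raised the regulators called higher from 7 to 11 and the niche genes from 8 to 15. Keeping every gene with at least 1 count moved the median of all genes by 0.13. The threshold of 0.01 lowered the genes called over the whole table to 3890, through its own construction, and they were between 4490 and 6429 with each library left out, lowest without g*Spns1*-cKO replicate 3. The other Kupffer cell genes called lower were 2 with DESeq2 and limma-voom, 0 with library size only, upper-quartile scaling, at least 1 count, the threshold of 0.01 and the replicate block, and between 0 and 1 with each library left out; the cause was not tested. *Spns1* was not called lower with library size only, upper-quartile scaling, the threshold of 0.01, or without control replicate 2 or g*Spns1*-cKO replicates 1 or 3. The log2 difference of the summed members relative to macrophage genes was between -0.12 and 0.04 with each library left out, and -0.15 with the 4-gene reference. Same-numbered livers did not deviate together (correlations 0.04, 0.03 and -0.03), so the replicate number was not taken as a pairing. With the replicate block 6100 genes were called, and 9 of the 10 members were higher with a median of 1.95.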

Other observations

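By the edgeR test 21.3% of all genes tested rose and 20.5% fell, beside which the counts below stand. Among other immune cell markers, 4 of 5 tested neutrophil genes rose and none fell (edgeR, adjusted p under 0.05), with summed levels of 3.17 to 5.98 CPM in control and 9.92 to 16.1 in g*Spns1*-cKO livers. *Retnlg*, *Csf3r* and *S100a8* had log2 fold changes of 2.32, 1.97 and 1.46, and *Ly6g* had at most 2 counts in any library. Of 7 T and NK cell genes, 3 rose, *Ncr1*, *Nkg7* and *Klrb1c*, all expressed by NK cells, and *Cd4* fell by 1.26 on the log2 scale (edgeR adjusted p = 0.0212), with 57, 61 and 46 counts in control and 29, 16 and 47 in g*Spns1*-cKO livers. *Cd3e* had 11, 4 and 16 counts against 9, 20 and 14 and *Cd3d* 22, 26 and 14 against 17, 36 and 18, and neither passed. *Cd8a* had a log2 fold change of 1.95 and did not pass (edgeR adjusted p = 0.0701). It passed as higher with library size only (2.39, edgeR adjusted p = 0.0272). The call of *Cd4* was lost with library size only (-0.82, edgeR adjusted p = 0.0898). Summed levels of this list were 3.99 to 4.42 against 5.53 to 6.80 CPM. Of 4 B cell genes none passed in either direction (unadjusted p not under 0.05 for any), at 1.42 to 2.38 against 2.48 to 3.09 CPM. With library size only, *Cd79a* passed as higher (1.05, edgeR adjusted p = 0.0455). Of 4 tested dendritic cell genes *Flt3* and *Clec9a* rose, by 1.96 and 1.42 on the log2 scale, at 7.40 to 9.03 against 10.3 to 12.4 CPM.

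*Siglecf*, an eosinophil receptor gene, had no count in any control liver and 12, 11 and 22 counts in g*Spns1*-cKO livers, while *Epx*, the eosinophil peroxidase gene, had none in any library; the 3 eosinophil genes summed to at most 0.0325 CPM in control and 0.361 to 0.585 in g*Spns1*-cKO livers. The 4 cholangiocyte genes all rose, with *Epcam*, *Krt19* and *Krt7* at log2 fold changes of 3.11, 2.29 and 2.03, and summed levels of 5.42 to 6.64 against 22.7 to 31.4 CPM. Of the peritoneal macrophage genes, *Prg4*, which hepatocytes also make, fell by 1.11 on the log2 scale, a call lost with library size only (-0.66, edgeR adjusted p = 0.101). The other 2 tested genes, *Gata6* and *Icam2*, did not pass. Both passed as higher with library size only (0.96 and 0.75, edgeR adjusted p = 0.00202 and 0.0484). The list summed to 56.3 to 115 against 49.98 to 54.4 CPM. In the erythroid list, *Hba-a1* and *Hbb-bs* rose by 1.16 and 1.11, whereas *Alas2*, the first enzyme of erythroid heme synthesis, fell by 3.17 (edgeR adjusted p = 0.000772), at 125.7 to 145 against 74.2 to 166 CPM. Reads of *Hba-a1* and *Hbb-bs* can be shared with near-identical copies.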
